A study of Mus musculus with 6 samples.

Results

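The BCL2 family decides whether a cell keeps its mitochondria intact or opens them and dies. Survival proteins such as BCL2, BCL-XL and MCL1 hold the effectors BAX and BAK in check, and BH3-only proteins (BIM, PUMA, NOXA, BMF and BID) bind the survival proteins, and in some cases the effectors, through a short helix called the BH3 domain. When the effectors are freed they permeabilise the outer mitochondrial membrane, cytochrome c leaves, and caspases are activated. In blood cells the members are used unequally: mature lymphocytes lean on BCL2, maturing red cells on BCL-XL, and stem cells and many myeloid leukaemias on MCL1.

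Described here are 10 mouse genes of the family, chosen by name: 3 survival members (Bcl2, Bcl2l1 and Mcl1), 5 BH3-only members (Bcl2l11, Bbc3, Pmaip1, Bmf and Bid) and 2 effectors (Bax and Bak1). All 10 are among the 27179 genes of the read count table, and all 10 passed the filter on low counts. The study sorted living (propidium iodide excluded) GFP-positive leukaemia cells from the spleens of C57BL/6 mice and sequenced their mRNA, with 3 libraries from mice given panobinostat for 3 days and 3 libraries from mice given vehicle. Panobinostat inhibits histone deacetylases. Both groups carry the same leukaemia, labelled A/E9a;NRASG12D;Ifnar1-/-: the A/E9a fusion (a truncated form of AML1-ETO), an activated NRAS, and loss of the type I interferon receptor chain Ifnar1. The vehicle leukaemia therefore also lacks this receptor, and no leukaemia that has it is part of the comparison. The labels name the leukaemia as a cell line and do not say how many independent tumours it stands for, nor that libraries of a group came from separate mice. Every p-value below is therefore about the scatter of these 6 libraries, part of which may be technical.

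Levels are given as CPM, read counts scaled to a library of 1e6, and a fold change is panobinostat over vehicle on the log2 scale. The libraries held 31989622 to 35962605 counts, so 3 counts, the most that a count of 0 allows, come to 0.0834 to 0.0948 CPM. This floor covers counting error only. Granulocyte and monocyte markers, 9 genes with Mpo and Itgam among them, summed to 5.42 to 7.24 CPM in panobinostat and 7.96 to 10.8 CPM in vehicle libraries, although the leukaemia is a myeloid one. Erythroid markers, 9 genes, summed to 2760 to 22500 CPM in panobinostat and 7680 to 23300 CPM in vehicle libraries. The globins Hba-a1, Hba-a2 and Hbb-bs made up most of these sums. They stood at 605, 856 and 400 CPM in panobinostat library 1 and at 7690, 11000 and 2790 CPM in vehicle library 1. Of the other markers, Klf1 ran from 171 to 324 CPM and Slc4a1 from 35.1 to 965 CPM over all libraries. Kit, the stem cell factor receptor, was present in every library at 121 to 266 CPM. Vehicle library 1 stood apart from its group: the axis of largest variance (50.7%) put panobinostat libraries at -16.7, -15.0 and -25.3 and vehicle library 1 at -53.7, while the other vehicle libraries scored 54.3 and 56.4. Panobinostat library 1 was the extreme one on the next axis, at 64.9. Only the column names give that library its group, and nothing else in the files checks its label, so every fold change and ratio below takes it as vehicle on that name alone. Fold changes of members that rest on either library are given with and without it.

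The BH3 stretch is what the members share, and its coding bases differ from gene to gene. Each line below gives 33 bases of the coding strand, 5′ to 3′, from GENCODE M21 transcripts of GRCm38. The capitals mark the codon of the conserved leucine and, 4 codons on, the glycine or alanine codon followed by the aspartate codon. A search of each reading frame for leucine, 2 residues of any kind, then alanine, isoleucine, methionine or valine, then glycine or alanine and aspartate had 1 match in each of 9 members. The marked codons are those that the search asked for, so their presence in each line follows from it. For Pmaip1 no sequence is given.
Bcl2: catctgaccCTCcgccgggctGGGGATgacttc
Bcl2l1: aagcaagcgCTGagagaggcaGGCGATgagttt
Mcl1: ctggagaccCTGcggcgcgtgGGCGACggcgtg
Bcl2l11: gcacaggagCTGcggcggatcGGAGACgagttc
Bbc3: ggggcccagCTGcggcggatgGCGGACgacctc
Bmf: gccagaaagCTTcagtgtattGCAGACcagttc
Bid: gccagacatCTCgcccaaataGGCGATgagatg
Bax: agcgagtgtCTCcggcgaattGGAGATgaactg
Bak1: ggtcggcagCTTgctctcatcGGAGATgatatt

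Bbc3 and Bmf carry an alanine codon (GCG and GCA) where the other 7 have a glycine codon before the aspartate. None of the 9 stretches crosses an exon junction. On the survival side they lie in exon 1 of Bcl2 (chr1:106712578-106712610, minus strand), exon 2 of Bcl2l1 (chr2:152829700-152829732, minus) and exon 1 of Mcl1 (chr3:95659427-95659459, plus). On the BH3-only side they lie in exon 3 of Bcl2l11 (chr2:128147141-128147173, plus), exon 3 of Bbc3 (chr7:16313764-16313796, plus), exon 4 of Bmf (chr2:118545103-118545135, minus) and exon 4 of Bid (chr6:120897292-120897324, minus). The effector stretches lie in exon 3 of Bax (chr7:45466000-45466032, minus) and exon 4 of Bak1 (chr17:27022534-27022566, minus). Counts were made per gene, so splice forms with opposite effects, such as the long and short forms of Bcl2l1 or Mcl1, cannot be told apart in any value below.

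Divided by exon length, the family covered about 3 orders of magnitude, and the order of the members was nearly the same with and without the drug. Effectors and Mcl1 led. Bax stood at 102 ± 22.0 CPM per kb in panobinostat and 97.4 ± 26.3 in vehicle libraries (SD, n = 3 each). Mcl1 followed with 60.4 ± 4.82 CPM per kb in panobinostat and 59.9 ± 19.1 in vehicle libraries, and Bak1 with 55.1 ± 3.03 in panobinostat and 48.7 ± 8.91 in vehicle libraries. Bax was above Mcl1 and Mcl1 above Bak1 in 6 of 6 libraries, although their ranges over the libraries overlapped. A middle group held Bcl2l1 (16.3 to 32.5 CPM per kb over all libraries), Bid (11.2 to 22.4) and Bbc3 (11.0 to 25.8), with overlapping ranges. Bid exceeded Bbc3 in only 3 of 6 libraries, so these neighbours are not ordered.

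Bcl2l11 (1.62 to 4.08 CPM per kb) and Bmf (0.906 to 2.11) lay below every value of the middle group and overlapped each other. The lowest levels were those of Bcl2 (0.115 to 0.665) and Pmaip1 (0.0407 to 0.301). Among survival members the order was the same in every library, with Mcl1 above Bcl2l1 and Bcl2 far below both. The Mcl1 to Bcl2 ratio was 484, 138 and 213 in panobinostat libraries 1, 2 and 3, and 279, 92.9 and 76.2 in vehicle libraries 1, 2 and 3. These groups overlapped.

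**Figure D1:**
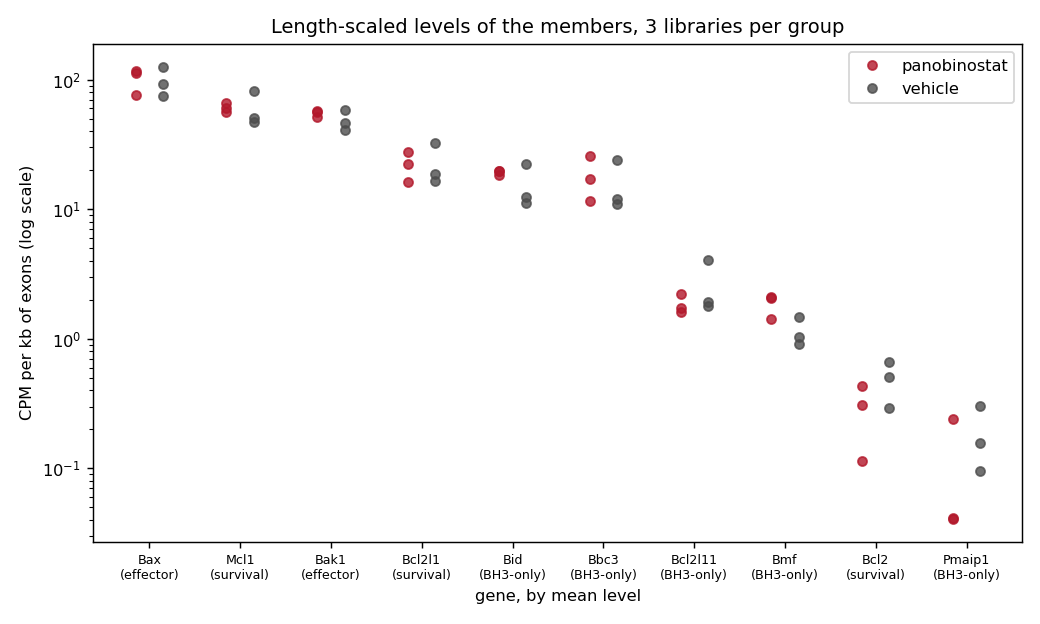
Length-scaled level of each member (CPM per kb of exons, log axis) in 3 panobinostat libraries (red) and 3 vehicle libraries (grey), with genes ordered by their mean. Bax, Mcl1 and Bak1 lie between 41.2 and 126, while Bcl2 and Pmaip1 stay below 0.7 in every library.

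No member passed the test for a difference between panobinostat and vehicle. EdgeR's quasi-likelihood test, adjusted by Benjamini and Hochberg's method over 13207 genes with a threshold of 0.05, called 0 of the 10 members, with an adjusted p of 0.998 for each. It called 0% of all genes, and 301 genes had an unadjusted p under 0.05, of which 1 was a member, Bmf. By DESeq2 and by limma-voom 0 members were called too. Estimates lay above 0 for 6 members and below 0 for 4, with a median of 0.04, against 50.2% above 0 and a median of 0.00 over all genes tested. For no member did the panobinostat libraries lie wholly on one side of the vehicle libraries, which they did for 7.43% of all genes. The design still allows sizeable changes: the 95% interval lay within a 2-fold change in either direction for 5 members (Bcl2l1, Mcl1, Bid, Bax and Bak1) and reached past it for the other 5.

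**Figure D2:**
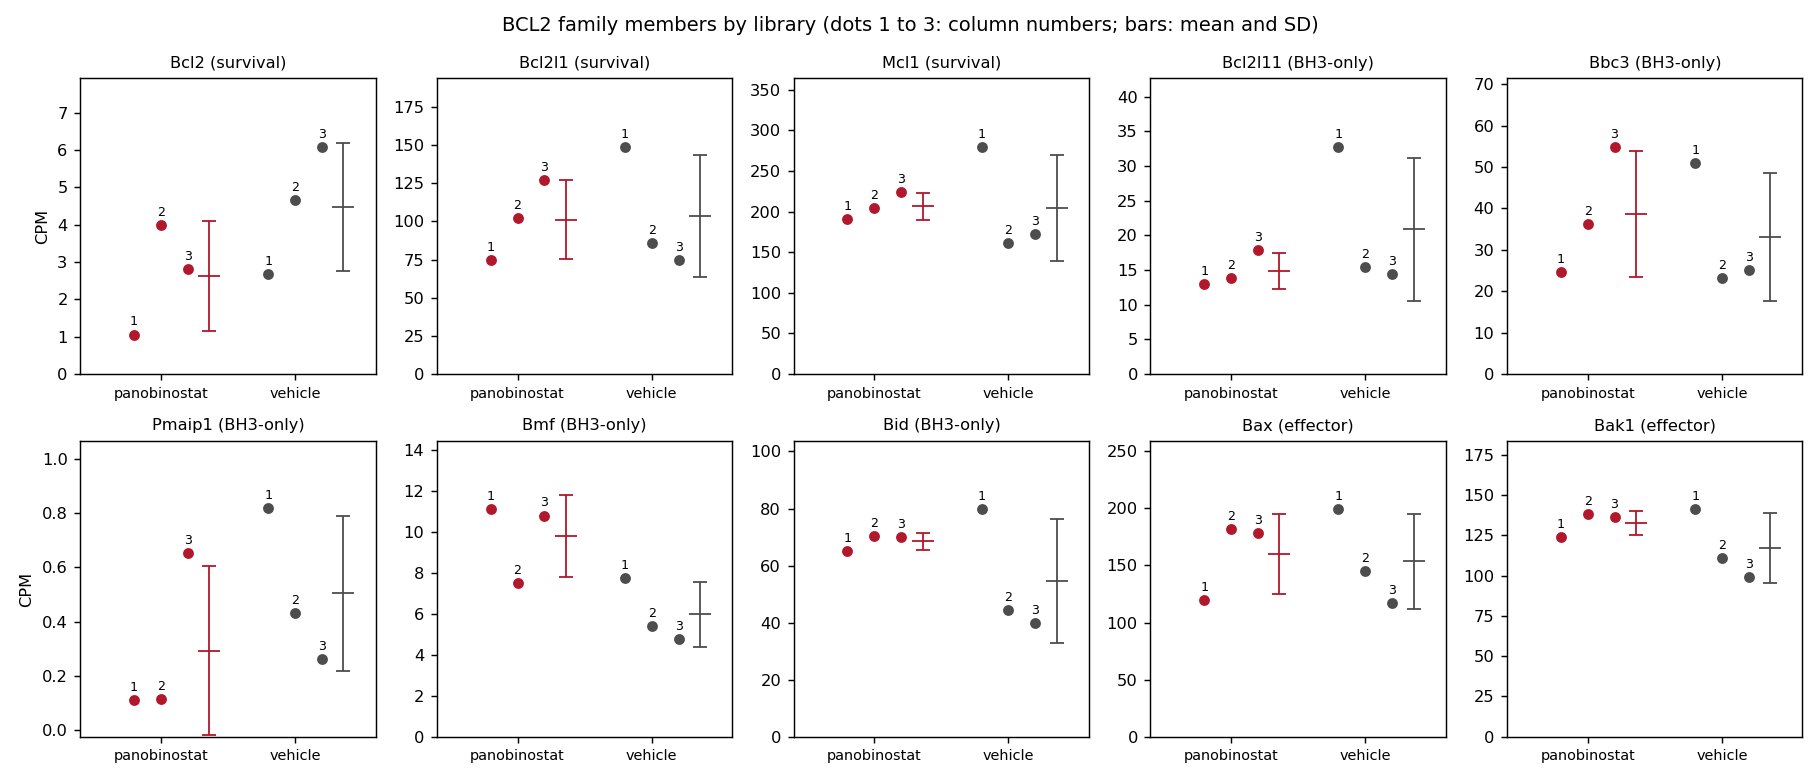
CPM of each member in every library, with panobinostat (red) left of vehicle (grey), dots numbered by library and bars showing mean and SD of 3 libraries. Vehicle library 1 is the highest of its group for every member but Bcl2, and in each panel the groups overlap.

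Vehicle library 1 set the size of most of these estimates. It held the highest value of all 6 libraries for 7 of the 10 members (Bcl2l1, Mcl1, Bcl2l11, Pmaip1, Bid, Bax and Bak1), and it was the highest library for 22.4% of all genes tested. Without it, edgeR called 268 of 13369 genes higher (2%) and 56 lower (0.419%), and among the members it called 1 higher, Bid, and 0 lower. Without both libraries numbered 1, an alternative chosen after the data were seen, it called 974 of 13239 genes higher (7.36%) and 616 lower (4.65%), and 3 members higher, Bid, Bbc3 and Bak1, and 0 lower. Without panobinostat library 1 alone it called 0 members.

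**Figure D3:**
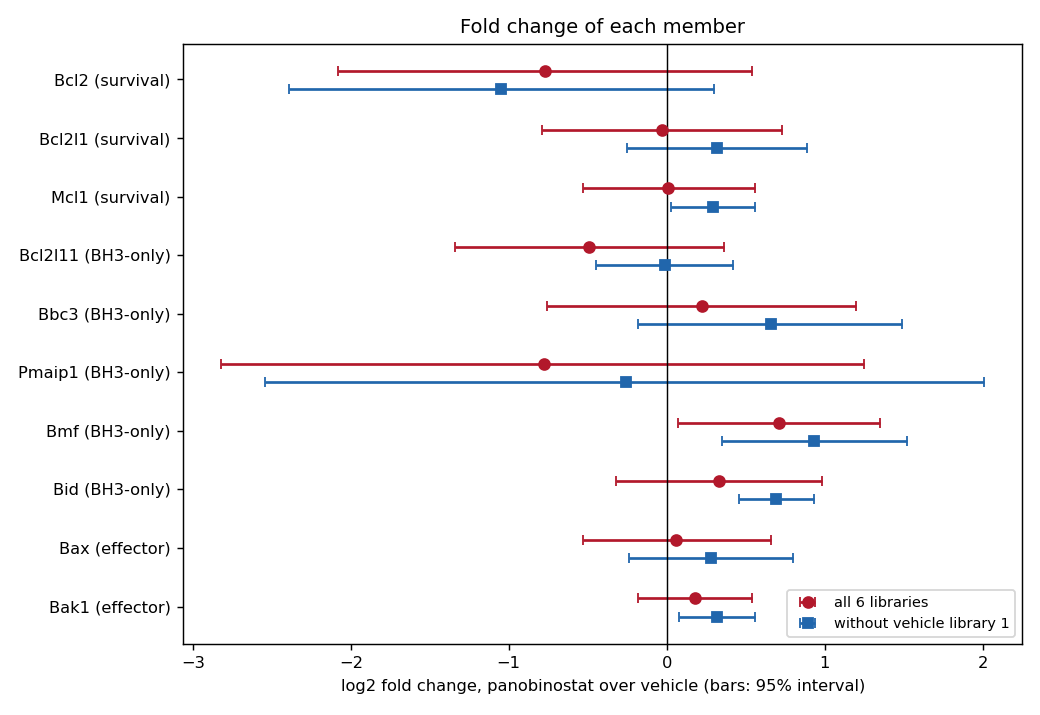
Log2 fold change of each member, panobinostat over vehicle, with its 95% interval, from all 6 libraries (red circles) and without vehicle library 1 (blue squares). Without that library 9 of 10 estimates move up, Bcl2 moves down, and the interval for Bid runs from 0.46 to 0.93.

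Among the survival members, Bcl2 was scarce and had its lowest value with the drug. Bcl2 (Entrez gene 12043, chromosome 1, 106538176 to 106714290, GRCm38, minus strand), the founding member of the family, stood at 1.06, 3.99 and 2.82 CPM in panobinostat libraries 1, 2 and 3, and at 2.69, 4.65 and 6.09 CPM in vehicle libraries 1, 2 and 3. Panobinostat library 1 was the lowest and vehicle library 3 the highest, and the groups overlapped because vehicle library 1 was under panobinostat libraries 2 and 3. The log2 fold change was -0.77 (95% interval -2.08 to 0.54), -0.39 without panobinostat library 1 and -1.05 without vehicle library 1. These values rest on 38 to 210 counts. B cell markers, 8 genes with Cd79a and Pax5 among them, summed to 4.89, 9.98 and 24.0 CPM in panobinostat libraries 1, 2 and 3, and to 23.2, 43.2 and 28.9 CPM in vehicle libraries 1, 2 and 3. This sum was thus also lowest in panobinostat library 1, where Pax5 had 0 counts. Cd79b was lower in panobinostat library 2, at 1.80 CPM against 2.78 CPM in panobinostat library 1. T cell markers, 8 genes, summed to 0.667, 2.53 and 6.14 CPM in panobinostat and 7.49, 7.03 and 4.47 CPM in vehicle libraries 1, 2 and 3. A low sum in panobinostat library 1 was not particular to lymphocyte markers. The sums of erythroid, megakaryocyte, and granulocyte and monocyte markers were lowest there too, at 2760, 227 and 5.42 CPM. Not every gene followed its sum. Gp5 (211 CPM) made up most of the megakaryocyte sum. Itga2b and Pf4 were lowest in vehicle library 3 instead, and Vwf was highest in panobinostat library 1, at 2.03 CPM. Lyz2 (2.86 CPM) and Csf1r (1.86 CPM) were not lowest in panobinostat library 1 either. Mature lymphocytes express Bcl2, and the part of any of these marker levels in the Bcl2 values was not tested. In a bulk library fewer cells of a type and less RNA per cell cannot be told apart.

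Bcl2l1 and Mcl1 were abundant and their estimates were close to 0. Bcl2l1 (Entrez gene 12048, chromosome 2, 152758732 to 152833803, minus strand), which encodes BCL-XL, stood at 74.8, 102 and 127 CPM in panobinostat libraries 1, 2 and 3, and at 149, 85.8 and 75.0 CPM in vehicle libraries 1, 2 and 3. The panobinostat values lay inside the vehicle range apart from library 1, which was just under it, and the log2 fold change was -0.03 (95% interval -0.79 to 0.73). Without vehicle library 1 it turned to 0.32, and without panobinostat library 1 to 0.15. Mcl1 (Entrez gene 17210, chromosome 3, 95656944 to 95663179, plus strand), a survival protein with a short half-life, stood at 191, 205 and 224 CPM in panobinostat libraries 1, 2 and 3, and at 280, 161 and 173 CPM in vehicle libraries 1, 2 and 3. All panobinostat values lay above vehicle libraries 2 and 3 and below vehicle library 1. Its log2 fold change was 0.01 (95% interval -0.53 to 0.56), and 0.29 without vehicle library 1 (interval 0.03 to 0.56, adjusted p 0.209 by edgeR).

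Of the BH3-only members, Bmf had the largest estimate above 0. Bmf (Entrez gene 171543, chromosome 2, 118528757 to 118549686, minus strand), which binds dynein light chain and is released by loss of attachment and by other stresses, stood at 11.1, 7.50 and 10.8 CPM in panobinostat libraries 1, 2 and 3, and at 7.77, 5.42 and 4.76 CPM in vehicle libraries 1, 2 and 3. The groups overlapped only through vehicle library 1 and panobinostat library 2. Its log2 fold change was 0.71 (SE 0.267, 95% interval 0.07 to 1.35), with an unadjusted p of 0.0351 and an adjusted p of 0.998 by edgeR. Over all alternatives the estimate stayed between 0.57 and 0.93, and the smallest adjusted p was 0.0704.

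Bid had the only value called when a single library was left out. Bid (Entrez gene 12122, chromosome 6, 120893119 to 120917062, minus strand), which links death receptors to mitochondria once caspase-8 has cut it, stood at 65.0, 70.4 and 70.0 CPM in panobinostat libraries 1, 2 and 3, and at 79.7, 44.3 and 39.8 CPM in vehicle libraries 1, 2 and 3. The panobinostat libraries were nearly equal and lay between vehicle library 1 and the other vehicle libraries. The log2 fold change was 0.33 (95% interval -0.32 to 0.98), and 0.69 (SE 0.0949, adjusted p 0.0335 by edgeR) without vehicle library 1. Leaving out vehicle library 2 or 3 instead lowered it to 0.20 and 0.15, uncalled. Bid's exons overlap those of Bcl2l13 on the opposite strand by 628 bases, 17.7% of Bid's exon length, and whether strand was used in counting is not given in the sources used here. Reads of that stretch could thus be assigned to the wrong gene or left out. Bcl2l13 was at 283, 344 and 342 CPM in panobinostat and 320, 368 and 407 CPM in vehicle libraries 1, 2 and 3, an estimate of -0.27 without vehicle library 1, opposite in sign to that of Bid.

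Bcl2l11 and Bbc3 shared a high vehicle library 1 but differed elsewhere. Bcl2l11 (Entrez gene 12125, chromosome 2, 128126038 to 128162547, plus strand), the gene of BIM, which binds all survival members, stood at 13.0, 13.8 and 17.9 CPM in panobinostat libraries 1, 2 and 3, and at 32.8, 15.4 and 14.4 CPM in vehicle libraries 1, 2 and 3. Vehicle library 1 was far above the other 5 libraries, which lay between 13.0 and 17.9 CPM. The log2 fold change was -0.49 (95% interval -1.34 to 0.36) and -0.01 without that library. Bbc3 (Entrez gene 170770, chromosome 7, 16308398 to 16318334, plus strand), the p53 target that encodes PUMA, stood at 24.7, 36.3 and 54.9 CPM in panobinostat libraries 1, 2 and 3, and at 51.0, 23.3 and 25.2 CPM in vehicle libraries 1, 2 and 3. Panobinostat library 3 and vehicle library 1 were high and the other 4 libraries ranged from 23.3 to 36.3. Its log2 fold change was 0.22 (95% interval -0.76 to 1.20), 0.66 without vehicle library 1, -0.13 without panobinostat library 3, and 0.90 (adjusted p 0.0436 by edgeR) without both libraries numbered 1.

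Pmaip1 was near the floor. Pmaip1 (Entrez gene 58801, chromosome 18, 66458604 to 66465558, plus strand), the gene of NOXA, which binds MCL1, had 4, 4 and 22 counts in panobinostat libraries 1, 2 and 3, and 26, 15 and 9 counts in vehicle libraries 1, 2 and 3. In CPM these were 0.111, 0.112 and 0.652 in panobinostat and 0.821, 0.430 and 0.261 in vehicle libraries. A fold change of -0.78 on the log2 scale had an interval from -2.82 to 1.25. It was -0.26 without vehicle library 1, -0.40 without panobinostat library 1 and -2.14 without panobinostat library 3, so the data say little about it at this depth.

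The effectors were abundant and their groups overlapped. Bax (Entrez gene 12028, chromosome 7, 45461695 to 45466903, minus strand), a cytosolic effector that moves to mitochondria, stood at 120, 182 and 178 CPM in panobinostat libraries 1, 2 and 3, and at 199, 145 and 117 CPM in vehicle libraries 1, 2 and 3. The ranges coincided almost fully, with a log2 fold change of 0.06 (95% interval -0.53 to 0.66), 0.28 without vehicle library 1 and 0.23 without panobinostat library 1. Bak1 (Entrez gene 12018, chromosome 17, 27019812 to 27028627, minus strand), the effector that resides in the outer mitochondrial membrane, stood at 124, 138 and 136 CPM in panobinostat libraries 1, 2 and 3, and at 141, 111 and 99.2 CPM in vehicle libraries 1, 2 and 3. All panobinostat values lay above vehicle libraries 2 and 3 and below vehicle library 1. Its log2 fold change was 0.18 (95% interval -0.18 to 0.54), 0.32 without vehicle library 1, 0.08 without vehicle library 3, and 0.37 (adjusted p 0.0456 by edgeR) without both libraries numbered 1. Bak1's exons overlap those of Ggnbp1 on the opposite strand over 25.5% of their length, and Ggnbp1 was at most 4.69 CPM.

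**Figure D4:**
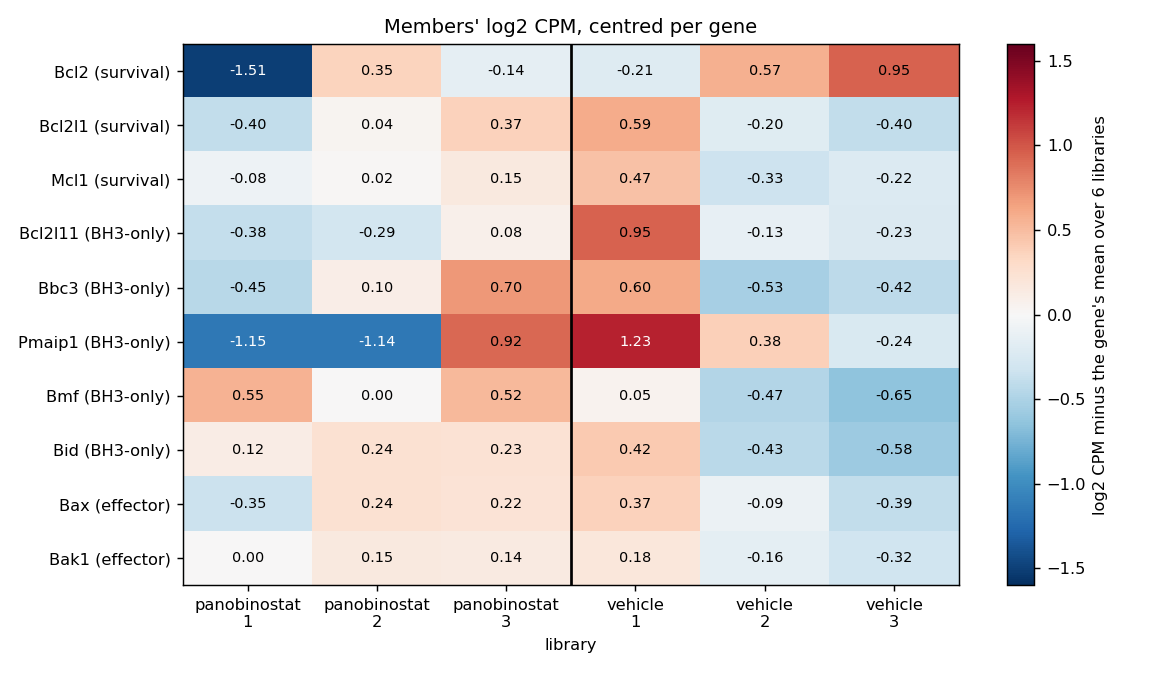
Log2 CPM of each member minus its mean over the 6 libraries, panobinostat libraries left of the line and vehicle libraries right of it. Vehicle library 1 is above the mean for every member but Bcl2, at -0.21, and vehicle libraries 2 and 3 are below it for all members but Bcl2 and, in vehicle library 2, Pmaip1.

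Survival and killing members alike were high in vehicle library 1. Centred on its own mean, vehicle library 1 was above 0 for 9 members, with Bcl2l11 at 0.95 and Pmaip1 at 1.23, and below 0 for Bcl2. By the SD of log2 CPM over the 6 libraries, Pmaip1 (1.02), Bcl2 (0.860) and Bbc3 (0.551) varied most and Bak1 (0.201) least. Among genes with a mean log2 CPM of at least 5, likeness was measured as the root mean square difference of centred log2 CPM over the 6 libraries. The profile of Bbc3 was closest to those of Tent5c (0.107) and Slc19a2 (0.11). That of Bcl2 was closest to Fn3krp (0.288) and to Rhd (0.306), the blood group antigen gene of red cells, and that of Pmaip1 to Btg2 (0.502) and Emc9 (0.590), which for these last 4 is a loose likeness.

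Ratios within a library do not depend on library scaling, and 8 of them were computed per kb of exons, as a description without a test, since an exact permutation test of 3 against 3 cannot go below 0.1. Groups did not overlap for 3 of the 8, of which 2 share Bcl2l11 as denominator. No share over other ratios was computed to set beside this count; over single genes it was 7.43%. Summed survival members relative to summed BH3-only members were 2.15, 2.06 and 1.87 in panobinostat libraries 1, 2 and 3, and 2.19, 2.50 and 2.62 in vehicle libraries 1, 2 and 3. This ratio was lower in every panobinostat library, though panobinostat library 1 and vehicle library 1 differed little. Mcl1 and Bcl2l1 made up nearly all of the survival sum, and Bid and Bbc3 most of the BH3-only sum. The scarcer members thus weigh little in it, and mRNA ratios do not give the protein balance. The 2 pairs with Bcl2l11 ran the other way, higher in every panobinostat library. Bcl2l11 was the only BH3-only member taken in pairs. These 2 ratios thus do not describe the survival members against Bid, Bbc3 or the other BH3-only members. Mcl1 relative to Bcl2l11 was 34.6, 35.0 and 29.4 in panobinostat and 20.1, 24.6 and 28.3 in vehicle libraries 1, 2 and 3, apart only by 29.4 against 28.3 at the nearest. Bcl2l1 relative to Bcl2l11 was 10.1, 12.9 and 12.5 in panobinostat and 7.96, 9.75 and 9.15 in vehicle libraries 1, 2 and 3.

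Against the effectors, the survival members gave overlapping groups. Summed survival relative to summed effector members was 0.565, 0.478 and 0.551 in panobinostat and 0.621, 0.481 and 0.586 in vehicle libraries 1, 2 and 3. Bcl2l1 relative to Bax ran from 0.192 to 0.245 in panobinostat and from 0.204 to 0.258 in vehicle libraries, and Mcl1 relative to Bak1 from 1.05 to 1.16 in panobinostat and from 1.02 to 1.40 in vehicle libraries.

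**Figure D5:**
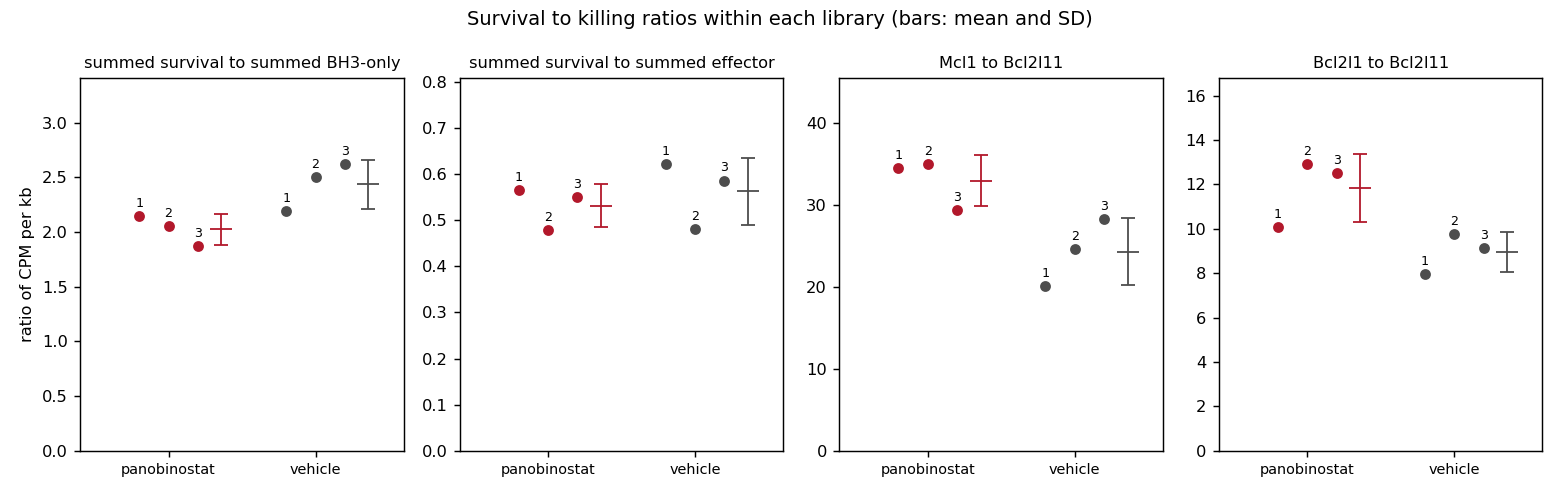
Ratios of CPM per kb within each library, panobinostat (red) left of vehicle (grey), with dots numbered by library and bars showing mean and SD of 3 libraries. The survival to BH3-only ratio is at most 2.15 in panobinostat and at least 2.19 in vehicle libraries, while both ratios to Bcl2l11 are higher in every panobinostat library.

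The other homologues of the family gave no call. Of 15 genes, 11 were tested, 0 were called higher and 0 lower, 4 estimates were above 0 and 7 below, and the median was -0.15. Bcl2l10 had 0 counts in every library, and Hrk, Bok and Bcl2l14 had at most 4. Bcl2l2, the survival member BCL-W, stood at 31.2, 27.3 and 27.4 CPM in panobinostat libraries 1, 2 and 3, and at 28.3, 20.9 and 22.8 CPM in vehicle libraries 1, 2 and 3. Per kb of exons it averaged 6.41 in panobinostat and 5.38 in vehicle libraries, above the 0.286 and 0.489 of Bcl2. The Bcl2a1 genes, near-identical copies (Bcl2a1a, Bcl2a1b and Bcl2a1d) whose reads cannot be assigned with certainty, were at most 0.415 CPM in panobinostat and 0.803 CPM in vehicle libraries. The BH3-only gene Bad stood at 27.8 ± 1.78 CPM in panobinostat and 29.4 ± 7.85 CPM in vehicle libraries, and Bik at 6.54 ± 1.39 CPM in panobinostat and 5.51 ± 2.09 CPM in vehicle libraries (SD, n = 3 each).

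Per kb of exons, Bnip3l and Bcl2l13, relatives with roles in mitophagy, were the most abundant of these homologues. Bnip3l, needed to clear mitochondria from maturing red cells, stood at 381 ± 56.3 CPM in panobinostat and 421 ± 30.2 CPM in vehicle libraries, and Bcl2l13 at 323 ± 35.0 CPM in panobinostat and 365 ± 43.5 CPM in vehicle libraries (SD, n = 3 each). Bnip3, a hypoxia-induced relative, stood at 38.7, 17.9 and 12.9 CPM in panobinostat libraries 1, 2 and 3, and at 13.5, 13.8 and 11.6 CPM in vehicle libraries 1, 2 and 3. Panobinostat library 1 was by far the highest, and the log2 fold change of 0.84 came to 0.25 without it. The mast cell and basophil markers, 7 genes, were also highest there, at 2420 CPM in sum, against 831 to 979 in the other libraries. Hdc (1330 CPM) and Ms4a2 (695 CPM) made up most of that sum. Fcer1a alone, at 27.4 CPM, was not highest there, and stood at 60.8 CPM in vehicle library 1. The sum of stem and progenitor markers, 5 genes, was likewise highest in panobinostat library 1, at 1360 CPM, against 916 to 1090 in the other libraries. Gata2 (1110 CPM) made up most of that sum and, like Cd34 (6.09 CPM), was highest there. Kit, Meis1 and Flt3 were not. Kit was at 241 CPM there and 266 CPM in vehicle library 3, and Meis1 at 0.500 CPM there and 17.8 CPM in vehicle library 1. The part of either marker set in the Bnip3 value was not tested. Bcl2l12 had an estimate of 0.01 and Bcl2l15 stayed at or below 1.13 CPM.

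Downstream genes of the pathway were present and, with all 6 libraries, not called. Of 21 genes for the apoptosome, caspases, their inhibitors and mitochondrial proteins, 21 were tested, 0 called in either direction, and 10 estimates were above 0 and 11 below, with a median of -0.01. Those with the smallest p were Casp6, Diablo and Casp9. Casp6, an executioner caspase, stood at 47.3, 41.2 and 33.4 CPM in panobinostat libraries 1, 2 and 3, and at 37.4, 92.5 and 82.8 CPM in vehicle libraries 1, 2 and 3, a log2 fold change of -0.80 (95% interval -1.64 to 0.03). Vehicle library 1 was again with the panobinostat libraries. The planned fit without it was read for this list only after the data were seen. In it edgeR called 0 of the 21 genes higher and 2 lower, Casp6 at -1.12 (adjusted p 0.0344) and Diablo at -0.57 (adjusted p 0.0341). Without both libraries numbered 1 it called 1 higher, Htra2, and 3 lower, Casp6, Diablo and Casp9, while without panobinostat library 1 alone it called 0. Diablo, which relieves caspases from their inhibitors, stood at 51.1 ± 1.42 CPM in panobinostat and 64.5 ± 18.9 CPM in vehicle libraries, and Casp9, the initiator caspase of the apoptosome, at 56.0 ± 2.07 CPM in panobinostat and 64.5 ± 11.2 CPM in vehicle libraries (SD, n = 3 each).

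Of 18 regulators and partners of the members, 16 were tested, 0 called, and 5 estimates were above 0 and 11 below, with a median of -0.09. Those with the smallest p were Dynll1, Foxo4 and Marchf5. Dynll1, a dynein light chain that binds BIM, stood at 184 ± 7.54 CPM in panobinostat and 227 ± 45.3 CPM in vehicle libraries. Foxo4, a forkhead factor, stood at 49.7 ± 3.82 CPM in panobinostat and 59.4 ± 11.1 CPM in vehicle libraries. Marchf5, a mitochondrial ubiquitin ligase, stood at 165 ± 28.1 CPM in panobinostat and 191 ± 9.88 CPM in vehicle libraries (SD, n = 3 each). Trp53, which encodes p53, and Dffa, the inhibitor of the caspase-activated DNase in the downstream list, were the only genes of these lists whose groups did not overlap, 2 of 37 tested, against 7.43% of all genes, and are named for that after their values were seen. Trp53 stood at 340 ± 3.32 CPM in panobinostat and 322 ± 8.40 CPM in vehicle libraries, and Dffa at 52.6 ± 0.624 CPM in panobinostat and 49.1 ± 2.62 CPM in vehicle libraries (SD, n = 3 each), each with an adjusted p of 0.998 by edgeR.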

How the data were processed

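Per the file headers, the deposited table holds read counts per Entrez gene for 3 treated and 3 control columns, with no normalization by the authors. The submitters' processing notes name HISAT2 2.1.0 as well as featureCounts with Subread 2.0.0 on build mm10, and list cutadapt 2.1, FastQC 0.11.6, bcl2fastq 2.17.1.14 and limma. No source used here gives their options, annotation or strandedness. Column numbers are not tied to the labels' replicate numbers, so libraries are named by group and column number.

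Symbols and gene positions came from RefSeq for GRCm38.p6 (25275 identifiers matched), exon lengths from the union of GENCODE M21 exons. All genes kept by filterByExpr (minimum count 10) were fitted in edgeR 4.0.16 under R 4.3.3, with TMM factors and the robust quasi-likelihood F-test, two-sided. A check on simulated data required only that median fold changes were recovered. It set no bar for missed or false calls. A standard error is the fold change over the square root of F. Log2 CPM used a prior count of 2. DESeq2 1.42.0 and limma 3.58.1 (voom) were alternatives, beside other scaling factors, filters, the replicate block and leaving out libraries.

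The members and lists were chosen with earlier results of these data known. Named genes were all members, all other homologues counted, the 3 of each further list with the smallest p, and the 2 profiles most like each of the 3 most variable members.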

Additional observations from a re-analysis of the deposited data

How the results depend on the processing

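EdgeR called 0 genes and 0 members under RLE or upper-quartile factors, library size alone, no robust option, a minimum mean of 1 CPM, no filter, a threshold of 0.01 and the replicate block. Limma-voom also called 0 genes. DESeq2 called 9 genes (7 higher, 2 lower) and 0 members. Leaving out 1 library at a time gave 0 to 324 genes and 0 to 1 members, and every one of these calls came without vehicle library 1. Without both libraries numbered 1, added after the data were seen, 1590 genes and 3 members were called. The cause was not tested.

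Among member estimates under the alternatives, 141 kept direction and stayed uncalled, 4 kept direction and were called, and 14 changed sign. With 1 library left out, Bcl2l1 ran from -0.23 to 0.32, Mcl1 from -0.13 to 0.29, Bbc3 from -0.13 to 0.66 and Bax from -0.10 to 0.28. Without both libraries numbered 1, Bcl2l1 came to 0.50, Bcl2l11 to 0.08 and Pmaip1 to 0.13. Bcl2l1 was 0.00 by limma-voom and 0.01 with the replicate block. Bcl2 (-1.21 to -0.39), Bmf (0.57 to 0.93), Bid (0.15 to 0.73) and Bak1 (0.08 to 0.37) kept their direction under every alternative run. Deviations from group means correlated at -0.14, 0.07 and -0.20 across genes for column numbers 1, 2 and 3. With 3 libraries per group and an outlying library in each, these values cannot settle whether the numbers pair the libraries. The labels give no pairing. For the ratios, the log2 difference of Bcl2l1 to Bax was -0.07. It came to 0.02 without panobinostat library 2 and to 0.03 without vehicle library 1. That of Mcl1 to Bcl2l1 was 0.05, and -0.09 without panobinostat library 1. No ratio difference was taken without both libraries numbered 1. Depth limits Pmaip1 most.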
